A study of Mus musculus with 6 samples.

Results

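The TRIM (tripartite motif) family of ubiquitin ligases was followed in BV-2 microglia with and without lipopolysaccharide. Members were the genes whose symbol is Trim followed by a number and at most a letter from a to d, on a row of the array table that names no other gene. By this rule 63 of the 22180 named genes were members, read from 68 of the table's 41345 rows, and the row with the highest mean stood for a gene that had more than 1. BV-2 is a mouse brain microglial line that keeps functional markers of macrophages and was immortalised with a retrovirus carrying the oncogenes v-raf and v-myc (spelled v-mic in the labels). All 6 samples therefore come from 1 transformed line. The control group held 3 samples of resting cells with no added agent, and the time for which they were kept is not given. The LPS group held 3 samples given lipopolysaccharide of Escherichia coli O111:B4, a bacterial cell wall component recognised by the receptor TLR4, at 1 µg/mL for 24 h. Total RNA of each sample was hybridised to 1 whole-transcript Affymetrix array. The labels number the replicates without saying that they were separate cultures, so a p-value here reflects only how much the 6 arrays varied, and that variation may be technical.

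Most but not all TRIM proteins have a RING domain, followed by 1 or more B-boxes and a coiled coil. Most transfer ubiquitin from a conjugating enzyme to a target protein. In immune cells several of them place ubiquitin chains on sensors of foreign RNA or on adaptors of the pathways that lead to interferon and to NF-kappa B. Many TRIM genes are themselves induced by interferon in macrophages, and others serve chromatin, muscle, the cytoskeleton or germ cells.

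Values are given on the deposited log2 expression scale, where a difference of 1 is a 2-fold change. The 6 arrays had medians between 2.88 and 2.97 over all rows. Rows for olfactory, vomeronasal and taste receptors, which microglia were not taken to express, gave a background line at 3.09, the 95th percentile of the means of 1438 such rows. All 10 microglia and macrophage markers lay above this line. No astrocyte marker of 6 and no oligodendrocyte marker of 5 did, while 1 of 6 neuron markers (Rbfox3) and 1 of 5 endothelial markers (Kdr) did. The astrocyte list summed to 14.4 to 15.4 in the controls and 14.5 to 15.0 with LPS, and the neuron list to 16.7 to 17.8 and 16.5 to 17.2. The oligodendrocyte list summed to 12.3 to 13.2 and 12.1 to 12.2, and so was lower with LPS on every array. The endothelial list summed to 18.1 to 18.5 and 17.6 to 19.0, with Kdr, the VEGF receptor, at group means of 8.99 and 8.67. Their part in the results was not tested. On 2 arrays many genes stood apart from the others of their group. Control replicate 2 lay over 0.5 below the mean of the other controls for 21.5% of genes and for 12 TRIM genes, and LPS replicate 3 lay over 0.5 above the mean of the other LPS arrays for 10.5% of genes and for 8 TRIM genes. Those 8 were Trim12a, Trim14, Trim21, Trim25, Trim35, Trim39, Trim56 and Trim63. What set these 2 arrays apart was not tested.

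No TRIM gene passed the test after LPS. In limma, with Benjamini-Hochberg adjustment over all 41345 rows and 3 arrays per group, 0.193% of rows rose and 0% fell at an adjusted p under 0.05, and 0 of 63 TRIM genes were among them. The count was also 0 without control replicate 2 and LPS replicate 3. The lowest adjusted p of a TRIM gene was 0.31, for Trim12a. At an unadjusted p under 0.05, 4 TRIM genes were higher with LPS (Trim12a, Trim24, Trim25 and Trim46) and 0 were lower, where 5.36% of all genes were higher and 1.19% lower. Every LPS value lay above every control value for 8 TRIM genes, which is 12.7% of the family against 9.04% of all genes. Every LPS value lay below every control value for 1 TRIM gene, Trim42, where 3.49% of all genes did so, and the groups overlapped for the other 54.

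The family's differences were mostly small. In bulk RNA, fewer cells that express a gene and less RNA per cell cannot be told apart. The log2 fold change was above 0 for 42 members and below 0 for 21, where 56.7% of all genes were above 0. The median was 0.07 beside 0.03 over all genes, and the values ran from -0.27 for Trim63, a muscle ligase, to 1.30 for Trim12a. The tally was 35 above 0 and 28 below without control replicate 2 (median 0.022), the same without LPS replicate 3 (median 0.044), and 32 and 31 without both arrays (median 0.0035). The median over all genes moved as well, to -0.023, 0.028 and -0.027 in these settings. Each difference has a 95% confidence interval, and for 56 of the 63 members this interval lay within a 2-fold change either way, a property of 85.7% of all genes. The intervals of the other 7 members reached past a 2-fold increase (Trim12a, Trim14, Trim21, Trim25, Trim29, Trim39 and Trim56), so for these an increase of that size was neither shown nor bounded out. Many members were dim: 32 of 63 had a mean above the background line and 31 lay at or under it, where an array says little about a change. The 56 narrow intervals include those of all 31 dim members. Of the 32 brighter members 25 had such an interval, which is 78.1%, beside 73.6% of all genes above the line. Among the 32 brighter members the median log2 fold change was 0.16, beside 0.12 over all genes above the line, and all LPS values were above all control values for 5 of the 32, beside 14.2% of all such genes. The median of the brighter members was 0.012 after quantile normalization, 0.013 without control replicate 2 and 0.042 without LPS replicate 3. It turned to -0.0076 without both arrays, and all alternatives for this median were chosen after seeing the data. The medians over all genes above the line are not given for these settings.

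**Figure D1:**
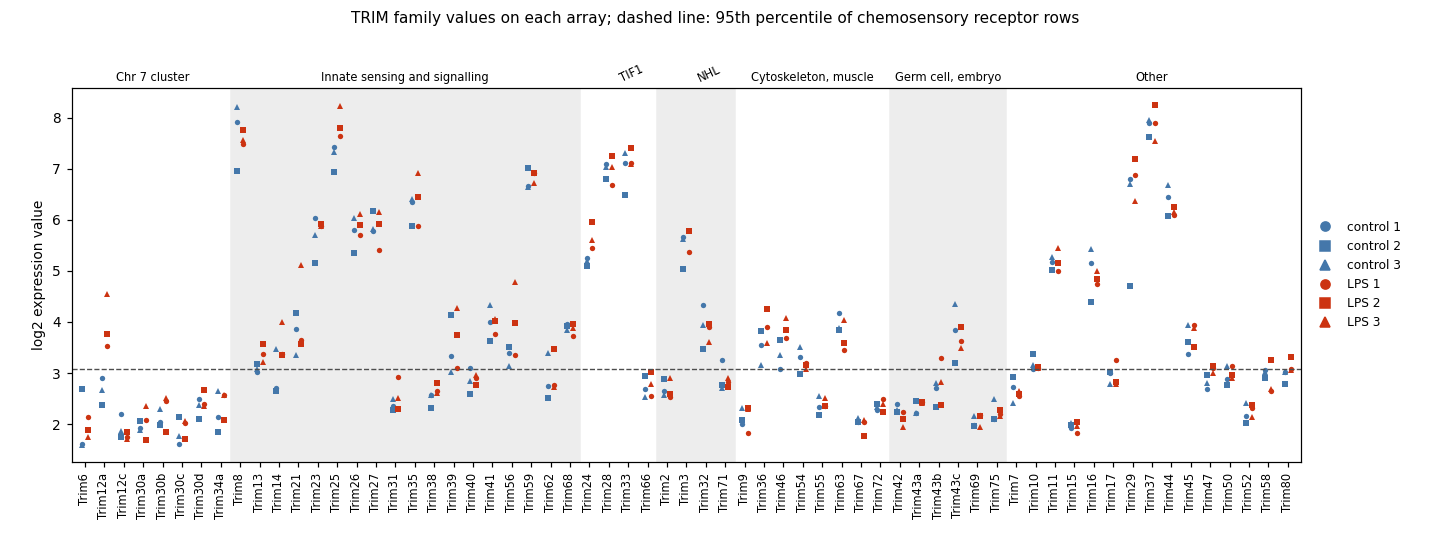
Log2 expression value (vertical axis) of the 63 TRIM genes (horizontal axis, by role) on each of the 3 control arrays (blue) and the 3 LPS arrays (red), with replicates marked by shape. The dashed line is the background line at 3.09; 7 of the 8 genes of the chromosome 7 cluster lie under it by their mean.

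**Figure D2:**
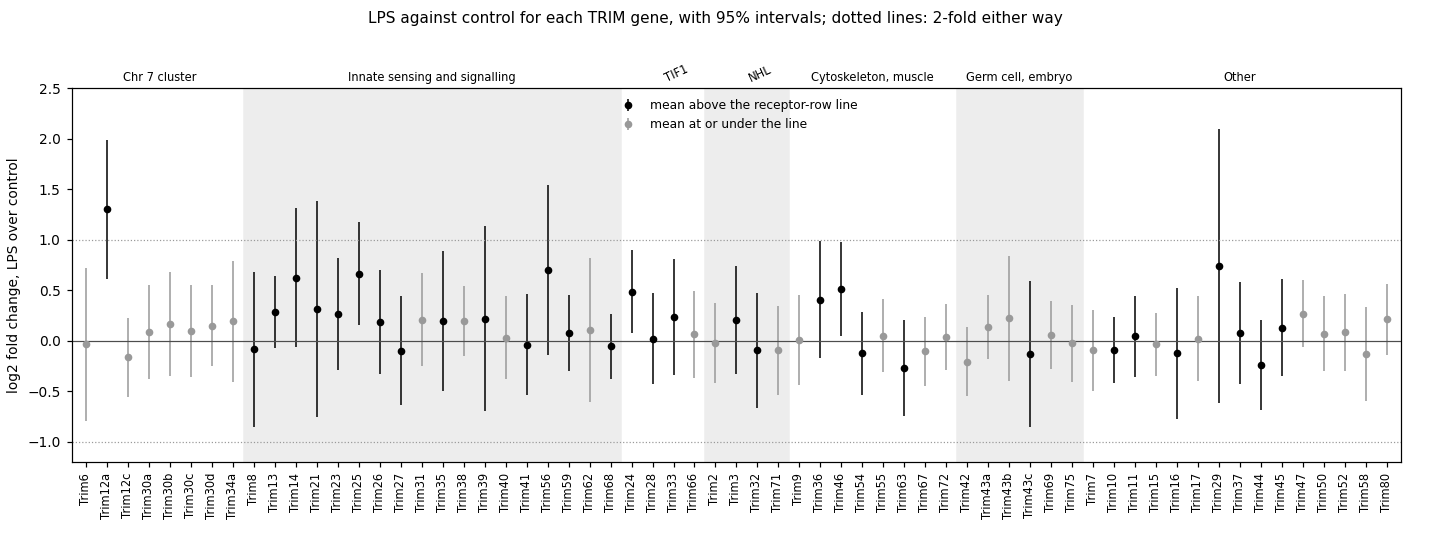
Log2 fold change, LPS over control, of each TRIM gene (point) with its 95% interval (bar), by role; black genes have a mean above the background line and grey genes do not. Dotted lines mark 2-fold either way, and the highest point is Trim12a at 1.30.

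The antiviral cluster on mouse chromosome 7 holds related genes of the family to which the retrovirus restriction factor TRIM5 belongs. Among them is Trim30a, a macrophage gene known as a brake on TLR signalling. In the RefSeq table for GRCm38.p6 the genes lie in the order Trim6, Trim34a, Trim5, Trim12a, Trim34b, Trim12c, Gm38525, Trim30b, Trim30c, Trim30a and Trim30d. Of the cluster's list, 8 genes had a row of their own, 0 passed the test and 1 lay above the background line by its mean. Trim5 and Trim34b had only rows shared with another symbol and were left out. Gene and probe sequences were not compared here. For such related genes, signal of 1 copy on the row of another therefore cannot be told apart from its own.

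Trim12a, a mouse relative of TRIM5, had the greatest fold change of the family. Its log2 values were 2.90, 2.37 and 2.67 in the controls and 3.54, 3.76 and 4.54 with LPS. All 3 LPS values lay above all 3 control values, and LPS replicate 3 was the highest of the 6. The means were 2.65 ± 0.26 and 3.95 ± 0.53 (SD, n = 3 each), a log2 fold change of 1.30 with a standard error of 0.29 and an interval of 0.61 to 1.99, or 2.46-fold, with an adjusted p of 0.31 in limma. The control mean lay under the background line and the LPS mean above it, so the fold rests on a control value within the range of background. Without LPS replicate 3 the log2 fold change was 1.00, and without that array and control replicate 2 it was 0.87.

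The other cluster genes stayed under the background line in both group means. Trim12c had values of 2.20, 1.74 and 1.87 in the controls and 1.76, 1.84 and 1.72 with LPS, a log2 fold change of -0.17 with an interval of -0.55 to 0.22. Trim30a had values of 1.93, 2.06 and 1.88 in the controls and 2.07, 1.69 and 2.36 with LPS, a log2 fold change of 0.09 with an interval of -0.38 to 0.55. In both genes the groups overlapped and the LPS mean was at least 1 log2 unit below the background line. Trim30b was measured at 2.04, 1.99 and 2.30 without LPS and 2.46, 1.85 and 2.52 with it. Trim30c was measured at 1.61, 2.13 and 1.76 without LPS and 2.02, 1.71 and 2.06 with it. Trim30d was measured at 2.49, 2.10 and 2.38 without LPS and 2.39, 2.67 and 2.36 with it. These Trim30 copies had log2 fold changes of 0.17, 0.10 and 0.15, with upper interval bounds of 0.68, 0.55 and 0.55, and the groups overlapped in each. Trim34a had values of 2.15, 1.85 and 2.65 in the controls and 2.56, 2.08 and 2.58 with LPS, a log2 fold change of 0.19. It was 0.0065 without control replicate 2, 0.41 without control replicate 3 and 0.044 as the mean of the gene's rows. Trim6 had values of 1.61, 2.69 and 1.59 in the controls and 2.14, 1.89 and 1.75 with LPS, a log2 fold change of -0.04. Its control replicate 2 stood highest of the 6 values, and without that array the log2 fold change was 0.33.

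The promoters of this cluster are shown because interferon acts on target genes through a short repeated element, whose core was searched for here. The window ran from 250 bases before to 50 bases after each annotated start in the RefSeq table for GRCm38.p6, and the letters searched on either strand were GAAANNGAAA, where N is any base. A window was held for 49 of the 63 TRIM genes and missing for 14. The core was found in 3.44% of all 32851 windows, which is in 3.99% of 27025 genes, and in 8 of the 49 TRIM genes, or 16.3%. They were Trim12a, Trim12c, Trim2, Trim21, Trim26, Trim30a, Trim30d and Trim34a, so 5 of the 8 belong to the cluster. The 30 bases around the core are printed for 7 of these genes and, for comparison, for Ifih1 and Ddx58, the RNA sensors that rose with LPS. They are read 5′ to 3′ along each gene's own strand, with the matching bases in capitals; where the core lies on the other strand, the capitals show its reverse complement.
Trim12a (chr7:104315466-104315495, minus strand, core 10 bases after the start): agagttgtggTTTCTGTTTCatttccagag
Trim12c (chr7:104353359-104353388, minus strand, core 29 bases before the start): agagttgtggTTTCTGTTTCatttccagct
Trim34a (chr7:104244457-104244486, plus strand, core 10 bases after the start): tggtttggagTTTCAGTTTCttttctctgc
Trim30a, start 1 (chr7:104465210-104465239, minus strand, core 36 bases before the start): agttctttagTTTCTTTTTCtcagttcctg
Trim30a, start 2 (chr7:104446104-104446133, minus strand, core 2 bases after the start): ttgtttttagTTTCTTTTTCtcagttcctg
Trim30d (chr7:104507871-104507900, minus strand, core 41 bases before the start): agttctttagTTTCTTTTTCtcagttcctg
Trim21 (chr7:102565450-102565479, minus strand, overlapping cores 13 and 19 bases after the start): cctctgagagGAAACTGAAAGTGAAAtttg
Trim26 (chr17:36836976-36837005, plus strand, overlapping cores 160 and 154 bases before the start): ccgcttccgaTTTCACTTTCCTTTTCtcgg
Ifih1 (chr2:62646206-62646235, minus strand, core 32 bases after the start): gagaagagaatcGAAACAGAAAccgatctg
Ddx58 (chr4:40239804-40239833, minus strand, core 2 bases after the start): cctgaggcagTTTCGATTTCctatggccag

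The 30 bases of Trim12a and Trim12c were identical at 28 positions. Their rows differed in this experiment: all LPS values were above the controls for Trim12a, while the groups overlapped for Trim12c under the background line. The 30 bases of Trim30a at start 1 and of Trim30d were identical at 30 positions, and those of Trim30a at start 2 matched Trim30d at 26. Of the 8 TRIM genes with the core, 1 (Trim12a) had all LPS values above all control values, and of the 41 with a window but no core, 7 did. The window of Ikbke, which also rose, held no core. A match of letters is a description and not a bound site. An NF-kappa B element with the letters GGGANNTTCC on either strand was found in 1.63% of genes and in 1 of the 49 TRIM genes, Trim28.

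**Figure D3:**
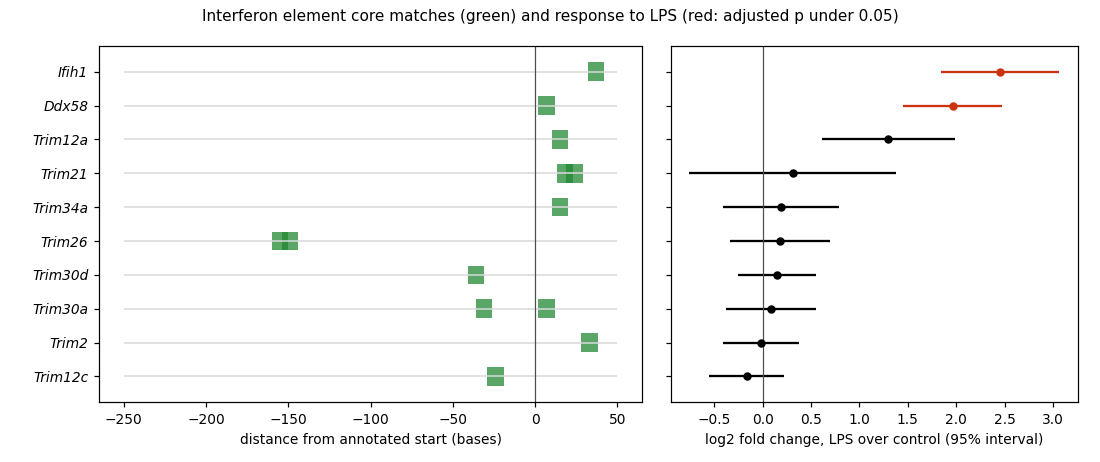
Left, position of the interferon element core (green) in the window from 250 bases before to 50 bases after the annotated start, in bases, for the 8 TRIM genes that hold it and for Ifih1 and Ddx58. Right, log2 fold change, LPS over control, with its 95% interval; Ifih1 and Ddx58 (red) passed the test at 2.45 and 1.96, and the TRIM genes (black) did not.

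Regulators of innate sensing and signalling made up 18 members, of which 14 lay above the background line and 0 passed the test. Their log2 fold changes ran from -0.10 to 0.70 with a median of 0.20, and 14 of the 18 were above 0. All LPS values were above all control values in 3 of them, Trim13, Trim25 and Trim38, which is 16.7% of the list. The share was 9.04% over all genes and 14.2% over all genes above the background line, and Trim38 lay under that line.

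Trim25, the ligase that attaches ubiquitin chains to the RNA sensor RIG-I, had log2 values of 7.43, 6.93 and 7.33 in the controls and 7.65, 7.80 and 8.23 with LPS. The groups did not overlap, and the closest pair was control replicate 1 and LPS replicate 1. The means of 7.23 ± 0.26 and 7.89 ± 0.30 (SD, n = 3 each) gave a log2 fold change of 0.66, with a standard error of 0.21 and an interval of 0.15 to 1.17, or 1.58-fold, with an adjusted p of 0.59 in limma. Without LPS replicate 3 and control replicate 2 the log2 fold change was 0.35. Trim13, a ligase of the endoplasmic reticulum membrane, had values of 3.03, 3.18 and 3.09 in the controls and 3.37, 3.57 and 3.21 with LPS. The groups lay close together without overlap, at a log2 fold change of 0.28 with an interval of -0.07 to 0.64. Trim21, a cytosolic receptor for the Fc part of antibodies, had values of 3.86, 4.18 and 3.35 in the controls and 3.64, 3.56 and 5.12 with LPS. Only LPS replicate 3 was high, at 1.52 above the mean of the other LPS arrays, and the other LPS values lay within the range of the controls. The log2 fold change of 0.31 had an interval of -0.76 to 1.38, and it was -0.20 without LPS replicate 3.

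The values of Trim14, Trim56, Trim38, Trim35 and Trim39 are given after they were seen. Trim56, a ligase that acts in the sensing of cytosolic nucleic acids, had values of 3.39, 3.51 and 3.13 in the controls and 3.35, 3.99 and 4.78 with LPS. LPS replicate 1 lay within the controls and LPS replicate 3 well above them, and the log2 fold change of 0.70 with an interval of -0.14 to 1.54 became 0.33 without LPS replicate 3. Trim14, an adaptor at mitochondria in antiviral signalling, had values of 2.70, 2.66 and 3.48 in the controls and 3.37, 3.35 and 4.00 with LPS. Replicate 3 was the highest array in each group, the groups overlapped through control replicate 3, and the log2 fold change was 0.62 with an interval of -0.06 to 1.31. It was 0.41 without LPS replicate 3 and 0.27 without that array and control replicate 2. As for Trim12a, the control mean, 2.95, lay under the background line and the LPS mean, 3.57, above it. Trim38, a regulator of TLR and interleukin signalling, had all LPS values above the controls but lay under the background line, with a log2 fold change of 0.20. Trim35 and Trim39 had log2 fold changes of 0.20 and 0.22 with intervals of -0.49 to 0.88 and -0.70 to 1.14. In both, LPS replicate 3 was the highest LPS array and the groups overlapped. Trim8, a bright member that acts on TAK1, had values of 7.91, 6.95 and 8.21 in the controls and 7.49, 7.75 and 7.57 with LPS. The LPS values lay within the range of the controls, and control replicate 2 was the lowest of the 6. Its log2 fold change of -0.09 had an interval of -0.86 to 0.68 and was -0.46 without control replicate 2.

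**Figure D4:**
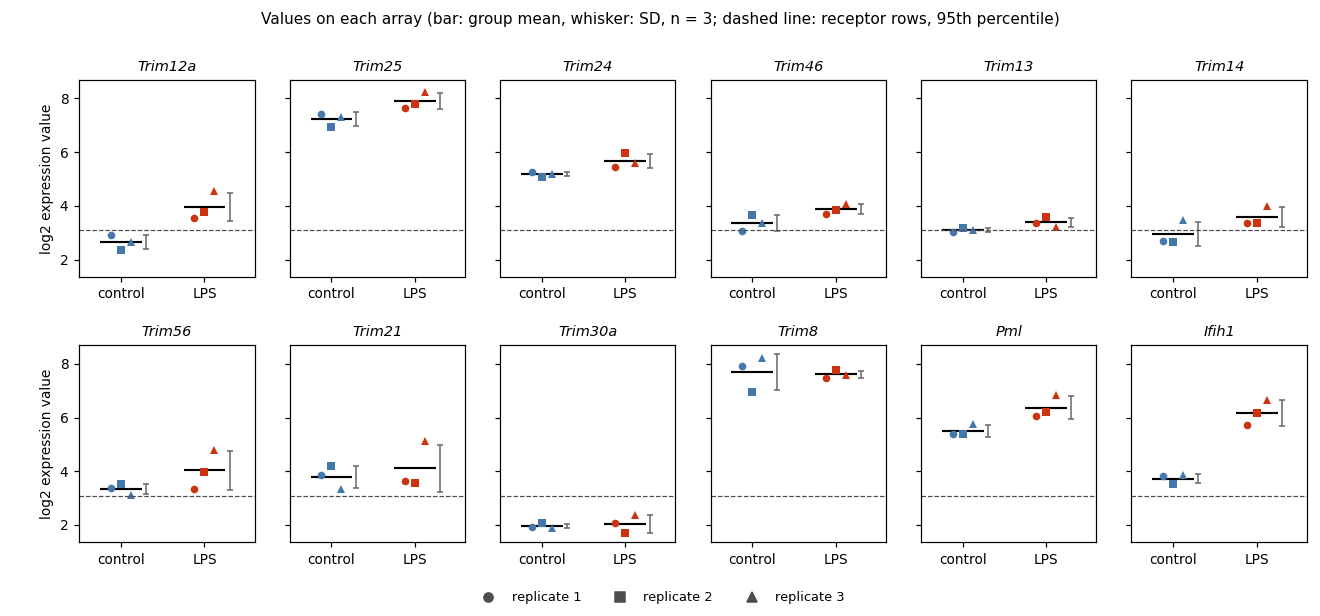
Log2 expression value (vertical axis) on each array of 10 TRIM genes, of Pml and of Ifih1, in control (blue) and LPS (red) cells; bars are group means, whiskers SD (n = 3), and the dashed line is the background line at 3.09. The groups stand apart for Trim12a, Trim25, Trim24, Trim46, Trim13, Pml and Ifih1, and for Trim21 a single LPS array, at 5.12, is above the controls.

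The 4 TIF1 genes encode chromatin regulators with a PHD finger and bromodomain next to the tripartite motif. None passed the test, 3 lay above the background line, and the log2 fold changes ran from 0.02 to 0.49. Trim24, a coregulator of nuclear receptors, had values of 5.26, 5.09 and 5.20 in the controls and 5.44, 5.96 and 5.61 with LPS. The controls lay close together, every LPS array lay above them, and LPS replicate 2 was the highest. The means of 5.18 ± 0.09 and 5.67 ± 0.26 (SD, n = 3 each) gave a log2 fold change of 0.49, with a standard error of 0.17, an interval of 0.07 to 0.90 and an adjusted p of 0.66 in limma. It was 0.31 after quantile normalization. Trim28 (KAP1), the corepressor that silences retroelements with zinc finger proteins, had values of 7.09, 6.80 and 7.03 in the controls and 6.68, 7.25 and 7.03 with LPS. The groups overlapped, with a log2 fold change of 0.02 and an interval of -0.43 to 0.47, so a 2-fold change either way lies outside the interval. Its sign turned under quantile normalization, to -0.18. Trim33, which binds SMAD proteins and controls myeloid gene programmes, had values of 7.11, 6.48 and 7.31 in the controls and 7.11, 7.40 and 7.10 with LPS. Control replicate 2 was the lowest value and the groups overlapped, with a log2 fold change of 0.23, which was -0.011 without that array. Trim66, a testis-enriched member, lay under the background line with values of 2.69, 2.94 and 2.54 in the controls and 2.56, 3.01 and 2.78 with LPS, and a log2 fold change of 0.06.

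The NHL-repeat genes, whose proteins bind RNA or cytoskeletal cargo through a C-terminal propeller, numbered 4, with 0 called and log2 fold changes from -0.10 to 0.20. Trim32, a ligase mutated in a limb-girdle muscular dystrophy, had values of 4.32, 3.48 and 3.94 in the controls and 3.89, 3.95 and 3.61 with LPS. The LPS values lay inside the range of the controls, with a log2 fold change of -0.10 and an interval of -0.66 to 0.47. The 8 cytoskeleton and muscle genes had log2 fold changes from -0.27 to 0.51 with a median of 0.02, and 4 lay above the background line. Trim46, which organises microtubules at the start of axons, was the member of this list whose groups did not overlap. Its values were 3.07, 3.65 and 3.35 in the controls and 3.69, 3.84 and 4.07 with LPS, so the highest control and the lowest LPS value nearly met. The log2 fold change was 0.51 with a standard error of 0.20 and an interval of 0.04 to 0.98, and the adjusted p in limma was 0.71. Its levels were close to the background line, and among the neuron markers only Rbfox3 lay above that line, with group means of 3.42 and 3.51.

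Germ cell and embryo genes (6 with a row) had log2 fold changes from -0.21 to 0.22, and 1 of them, Trim43c, lay above the background line. Trim42, a testis gene named after its values were seen, was the member with all LPS values below all control values, at 2.40, 2.24 and 2.27 in the controls and 2.24, 2.11 and 1.95 with LPS. The highest LPS value and a control value were equal to 2 decimals, and all 6 values lay under the background line. The remaining 15 members had a median log2 fold change of 0.04, from -0.24 to 0.74, with 0 called and 7 above the line. Trim37, a ligase of peroxisomes and centrosomes, had values of 7.90, 7.63 and 7.95 in the controls and 7.90, 8.25 and 7.54 with LPS. The LPS values spread to either side of the controls, with a log2 fold change of 0.07 and an interval of -0.43 to 0.58. Quantile normalization turned its sign, to -0.12. Trim80 had values of 3.02, 2.78 and 3.01 in the controls and 3.08, 3.30 and 3.07 with LPS, all near the background line, and a log2 fold change of 0.21. A brighter row that it shares with Mir3968, outside the rule, had overlapping groups and a log2 fold change of -0.15. Trim47, looked at after its values were seen, had all LPS values above the controls at a log2 fold change of 0.27, also near the line.

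Trim29, likewise looked at after its values were seen, had the widest interval of the family. This ligase of airway macrophages and epithelia had values of 6.80, 4.71 and 6.70 in the controls and 6.88, 7.20 and 6.36 with LPS. Control replicate 2 lay about 2 log2 units below the other controls, which lay within the range of the LPS arrays. The log2 fold change of 0.74 had an interval of -0.61 to 2.10, and without control replicate 2 it was 0.063.

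Of the 5 members with a further row of their own, Trim34a and Trim54 had opposite signs on their rows, and Trim27 had groups that overlapped on 1 row and not on the other. Trim27, a ligase that acts on kinases of the interferon pathway, had values of 5.78, 6.17 and 5.82 in the controls and 5.41, 5.91 and 6.15 with LPS on its brighter row, a log2 fold change of -0.10 with an interval of -0.64 to 0.44. On the dimmer row the values were 3.31, 3.59 and 3.63 in the controls and 2.86, 2.97 and 2.99 with LPS. All LPS values were below all control values there, at a log2 fold change of -0.57 and an adjusted p of 0.42 in limma, while the groups overlapped on the brighter row. The further rows of Trim34a, Trim42, Trim54 and Trim7 had log2 fold changes of -0.10, -0.06, 0.16 and -0.08, beside 0.19, -0.21, -0.12 and -0.09 on their brighter rows. Trim27 and its dimmer row were picked after their values were seen.

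TRIM proteins under other symbols were read from 8 genes, of which 0 passed the test and 2 lay above the background line. Pml (TRIM19), the organiser of nuclear bodies and an interferon target, had values of 5.38, 5.38 and 5.74 in the controls and 6.04, 6.20 and 6.84 with LPS. The groups did not overlap, and the log2 fold change of 0.86 had a standard error of 0.24, an interval of 0.28 to 1.44 and an adjusted p of 0.48 in limma. Without LPS replicate 3 and control replicate 2 it was 0.56. Mid1 (TRIM18), a microtubule-bound ligase, gave opposite signs on its rows. The brighter row had values of 6.81, 6.97 and 6.79 in the controls and 6.01, 6.32 and 7.36 with LPS, a log2 fold change of -0.30 with an interval of -1.10 to 0.51, and from -0.69 to -0.02 with 1 array left out. The dimmer row had values of 4.84, 5.03 and 5.27 in the controls and 5.69, 5.86 and 7.91 with LPS, a log2 fold change of 1.44 with an interval of 0.08 to 2.80 and an adjusted p of 0.74 in limma. On each row LPS replicate 3 was the highest array, and without it the dimmer row's log2 fold change was 0.73. Mefv (pyrin) lay under the background line, with values of 2.35, 2.12 and 2.29 in the controls and 2.73, 2.38 and 2.30 with LPS, and a log2 fold change of 0.22.

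The enzymes that hand ubiquitin and its relatives to TRIM ligases had log2 fold changes above 0 on the brightest row of 15 of 15 genes, with a median of 0.30, where 67.7% of all genes above the background line were above 0. Of 4 further rows of these genes 3 were below 0. Control replicate 2 was low for this list, and 12 of 15 were above 0 without it, 13 without LPS replicate 3 and 10 without both arrays. None of the 15 passed the test, 3 had an unadjusted p under 0.05 in limma (Ube2l6, Ube2e2 and Ube2v1), and in 6 all LPS values lay above all control values. These are 20% and 40% of the list, whose genes all lay above the background line, beside 10.1% and 14.2% of all genes above that line. Ube2l6, the conjugating enzyme for ISG15, had values of 6.83, 6.05 and 6.51 in the controls and 7.22, 7.15 and 7.82 with LPS, a log2 fold change of 0.93 with an interval of 0.30 to 1.57 and an adjusted p of 0.49 in limma. Uba7, the activating enzyme for ISG15, had values of 4.63, 4.35 and 4.51 in the controls and 4.65, 5.30 and 6.43 with LPS. LPS replicate 1 almost met the highest control, and the log2 fold change of 0.96 had an interval of -0.05 to 1.97. Both genes were named after their values were seen.

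Genes of the sensing and interferon pathway, on which many TRIM ligases act, did include called genes. Of 27 with a row, 3 rose in limma (Ikbke, Ifih1 and Ddx58), 0 fell, and in 14 all LPS values lay above all control values, which is 51.9% of the list beside 14.2% of all genes above the background line. Of the 10885 genes above that line 63 rose, and of all rows 0.193% did. The 14 became 15 when control replicate 2 was left out, and also when LPS replicate 3 was left out with it. The count stayed at 14 when only LPS replicate 3 was left out. Removing an array can keep or raise such a count but never lower it. These counts therefore cannot show whether the 14 rest on those 2 arrays, and the 14.2% is for all 6 arrays. The median log2 fold change of the list was 0.46. Ikbke, a kinase upstream of the interferon regulatory factors, rose from 5.84, 5.18 and 5.64 in the controls to 7.55, 8.01 and 7.61 with LPS, a log2 fold change of 2.17 with a standard error of 0.22 and an adjusted p of 0.030. Ifih1, the RNA sensor MDA5, rose from 3.82, 3.52 and 3.84 to 5.71, 6.16 and 6.67, a log2 fold change of 2.45 with a standard error of 0.26 and an adjusted p of 0.032. Ddx58, the RNA sensor RIG-I and the substrate of Trim25, rose from 4.33, 4.43 and 4.48 to 5.99, 6.37 and 6.77, a log2 fold change of 1.96 with a standard error of 0.21 and an adjusted p of 0.036. In each of the 3 genes the groups were separated by more than the range of either group. The log2 fold change of Trim25, at 0.66, had an upper bound of 1.17, and that of its substrate Ddx58 had a lower bound of 1.45; the difference between these genes was not tested. These calls depend on the setting. None of the 3 passed the test with the replicate number as a block, where the adjusted p was 0.28, 0.19 and 0.19. Without 1 array the list's count of called genes ran from 0 to 5: it was 0 without control replicate 1, without control replicate 3 or without LPS replicate 2, 1 without control replicate 2 or LPS replicate 1, and 5 without LPS replicate 3. Without LPS replicate 3 and control replicate 2 it was 6.

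Other interferon genes of this list, named after their values were seen, were much higher in every LPS array without passing the test. Irf7, Usp18 and Isg15 had log2 fold changes of 3.20, 3.43 and 2.93 with adjusted p of 0.088, 0.13 and 0.20 in limma. LPS replicate 3 lay 1.52, 2.00 and 1.95 above the mean of the other LPS arrays for these 3 genes, as it did by 1.52 for Trim21, 1.11 for Trim56 and 0.89 for Trim12a. Over all genes, 10.5% lay over 0.5 above that mean on this array and 5.41% over 0.5 below it. The median step was 0.36 for the sensing and interferon list and 0.35 for the microglia and macrophage markers. It was -0.0070 for all 63 TRIM genes and 0.11 for the 32 above the background line. Over all genes it was 0.00070, and over all genes above that line 0.075. What links these steps was not tested. Ifnb1, the gene of interferon beta, was under the background line on all arrays, at values between 1.81 and 2.02.

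**Figure D5:**
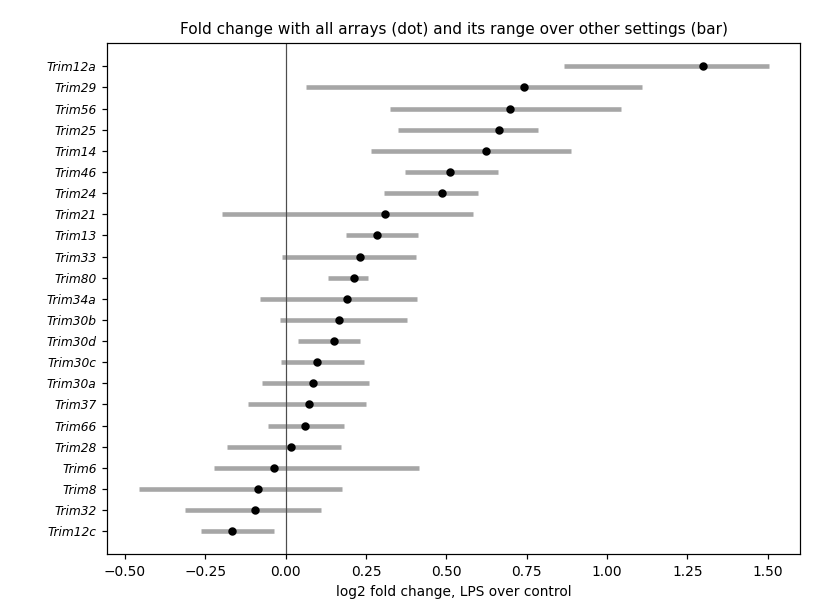
Log2 fold change, LPS over control (horizontal axis), of 23 TRIM genes (vertical axis) with all arrays (dot) and its range over the other settings (bar): 16, of which 6 leave out 1 array, or 15 for the dim genes, which have no value without dim rows. The range stays above 0 for Trim12a, Trim14, Trim25, Trim24, Trim46, Trim13, Trim56, Trim29, Trim80 and Trim30d, below 0 for Trim12c, and crosses 0 for the other 12.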

How the data were processed

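The 3 control and 3 LPS samples were each read on 1 array. The authors' deposited values are log2 expression values. Per the submitters' processing notes, the software was Affymetrix Expression Console. Its version, background correction, normalization and genome build are not given in the sources used here, and such steps can compress differences of dim genes. Of 41345 rows, 23521 name 1 gene in the platform annotation, 1814 several and 16010 none. All 63 TRIM genes matched RefSeq by gene identifier. Promoter sequences are RefSeq's, GRCm38.p6. A further motif searched is not reported here.

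All rows were fitted with limma 3.58.1 (R 4.3.3), by lmFit followed by eBayes with no trend, called at a Benjamini-Hochberg adjusted p under 0.05; single intervals are not adjusted. The script was tested on simulated data. The number of arrays limits the precision.

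The members and gene lists were chosen with earlier results of these data known. Per-array values are given for called genes, members whose groups do not overlap and whose higher mean exceeds the background line, the 5 members with the highest mean, the chromosome 7 and TIF1 lists, Trim13, Trim21, Trim25, Trim32, called partner genes, and Pml, Mid1 and Mefv. Genes named outside this rule are said to be.

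Alternatives covered normalization, row filters, row choice, the spread estimate, array weights, the replicate block and leaving out arrays. The labels number replicates 1 to 3 in each group but do not say what a shared number means.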

Additional observations from a re-analysis of the deposited data

How the results depend on the processing

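The count of TRIM genes called was 0 in each of the 16 alternatives, and the adjusted p of Trim12a ran from 0.15 to 0.77 over them. The median log2 fold change ran from 0.0035 to 0.12 over the alternatives that keep all 63 TRIM genes and was 0.16 for the 32 left without dim rows. Over all genes it ran from -0.027 to 0.069 in the same alternatives and was 0.12 without dim rows. The median of the brighter members, 0.16 with all arrays, ran from -0.0076 without control replicate 2 and LPS replicate 3 to 0.22 without LPS replicate 1. All alternatives for the brighter members' median, for Trim14, Trim29 and Trim56, and for the partner genes and lists were chosen after seeing the data. Same-numbered arrays of the groups deviated from their group means with correlations of 0.07, -0.26 and -0.22 over rows, so the numbers are not known to pair the samples. With the replicate block 0 TRIM genes and 0 sensing and interferon genes were called, and 7 rows of the table rose, against 80 without it. The 3 called sensing and interferon genes became 5 without dim rows, on rows with 1 symbol only and with 1 row per gene, where fewer rows were tested, and 6 without control replicate 2 and LPS replicate 3; leaving out 1 array gave 0 to 5. Over all rows, 80 higher and 0 lower became 152 and 67 without those 2 arrays, 53 and 14 without control replicate 2, 76 and 6 without LPS replicate 3, and 15 to 27 higher without any other array; 7 to 132 rose in the remaining settings.

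Some log2 fold changes turned sign. Quantile normalization gave -0.12 for Trim37 and -0.18 for Trim28. Without control replicate 2 and LPS replicate 3 the values were -0.091 for Trim28, -0.023 for Trim30a, -0.017 for Trim30b, -0.078 for Trim34a, -0.0061 for Trim21 and 0.41 for Trim6, which was 0.18 with array weights. The mean of all its rows gave 0.57 for Mid1. Leaving out 1 array gave -0.20 to 0.58 for Trim21, -0.11 to 0.17 for Trim28, -0.073 to 0.26 for Trim30a, -0.015 to 0.25 for Trim30c, -0.31 to 0.11 for Trim32, -0.011 to 0.40 for Trim33, -0.10 to 0.25 for Trim37, -0.22 to 0.33 for Trim6, -0.054 to 0.17 for Trim66 and -0.46 to 0.17 for Trim8. The cause of these turns was not tested. Of 23 TRIM genes followed, 11 kept their sign in every alternative run. With 3 arrays a group, the median 95% interval of a TRIM gene reached 0.45 on either side of its estimate.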
